A study of Mus musculus with 12 samples.

Results

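The genes described here build the contractile apparatus of the heart muscle cell, and 37 genes of the sarcomere and the myofibril were taken as a list of names, which the array's annotation pairs with probe sets. All 37 of 37 had a probe set on the array. A probe set is a group of short oligonucleotides that together read the transcript of a gene, and the 37 genes had 74 of the 45037 probe sets, which name 18193 genes in all. Each gene is given by its brightest probe set on average, 17 genes had more than 1, and 2 probe sets that name a member together with another gene were left out. Intensities are in arbitrary units and depend on the probes, so fold changes compare each gene only with itself across arrays. Where the intensities of a list of genes are summed, its brightest genes weigh most.

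Whole hearts of male C57BL/6J mice, 8 to 10 weeks old by the labels, were taken at day 5 and measured on Affymetrix arrays, with 3 arrays in each of 4 groups. The groups were hearts labelled CHIP knockout after doxorubicin (DOX), hearts labelled CHIP knockout without DOX, WT hearts after DOX and WT hearts without DOX. DOX, an anthracycline that damages heart muscle, was injected once into the peritoneum at 15 mg/kg by the labels, while the study's methods state a higher dose, older mice and a saline injection for the controls. CHIP, a ubiquitin ligase and cochaperone encoded by Stub1, was not low in the arrays labelled knockout: the brighter Stub1 probe set measured 5561, 7998 and 8723 in knockout-labelled DOX hearts, against 1944, 1949.9 and 1930.1 in WT DOX hearts, and 8762, 9817 and 9655 in knockout-labelled untreated hearts, against 1857, 1831 and 1790.3 in WT untreated hearts (log2 fold changes 1.89 and 2.34, limma with Benjamini-Hochberg adjustment, adjusted p = 9.9e-04 and 2.2e-04). The dimmer Stub1 probe set, with a mean of 1165, gave log2 fold changes of -0.08 and -0.04 (adjusted p = 0.736 and 0.936) and was not called. The study describes these mice as carrying a CHIP transgene expressed only in the heart, set against WT littermates. The arrays are therefore called knockout-labelled throughout, and every genotype difference below is that of these arrays, whichever allele they carry. Neither source says whether RNA of several hearts was pooled, so p-values measure the spread between these arrays.

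The sarcomere is the repeating unit in which myosin thick filaments slide along actin thin filaments. Tropomyosin and the troponins make the thin filament respond to calcium, titin and the M-band hold the thick filaments in place, and the Z-disc anchors the thin filaments and, through desmin and the intercalated disc, links neighbouring myofibrils and cells. Proteins at both ends of the thin filament set its length, and several sarcomere genes have sister genes that the atrium, the fetal heart, slow skeletal muscle or cells other than muscle use in place of the ventricular form.

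After DOX, Tpm4 fell in both genotypes. In WT hearts Tmod1 and Nebl also fell after DOX, and Des and Xirp1 rose. Knockout-labelled hearts had more Tmod1 and less Lmod2, Pdlim1 and Xirp1 than WT hearts after DOX, and more Tnni1 and less Myh7b, Tnnt1, Ablim1 and Pdlim1 than WT hearts without DOX. In all, 11 members passed the test in at least 1 comparison and 26 in none, and a gene that passed, at a limma adjusted p under 0.05 over all probe sets, is termed called. None of the 11 members with a mean intensity of 10000 or more was called. Among all probe sets with a mean of 1000 or more, 2.66% to 8.65% were called per comparison. A count of 0 in 11 is therefore not shown to set these members apart. In bulk hearts, fewer cells of a type and less RNA per cell cannot be told apart.

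The count of members called was 1 of 37 for the DOX response in knockout-labelled hearts, where 2.2% of all probe sets were called, and 5 of 37 for the DOX response in WT hearts, where 3.06% were called. It was 4 of 37 for the genotype difference after DOX, against 0.941% of all probe sets, and 5 of 37 for the genotype difference in untreated hearts, against 1.81%. The members are bright as a group, with 25 of 37 at a mean of 1000 or more, and among all probe sets of that brightness the shares called were 7.97%, 8.65%, 2.66% and 6.52% in the same order. The median log2 fold change of the 37 members lay at 0.01, -0.05, -0.04 and -0.07 in that order, beside 0.01, -0.01, 0.01 and -0.00 for all probe sets. The interaction, which sets the DOX response of one genotype against that of the other, called 0 members and 0 of the 45037 probe sets by limma. At an unadjusted p under 0.05 it held 6 members, beside 8.69% of all probe sets. A DOX response that was called in 1 genotype and not in the other is therefore not shown to differ between them. The log2 fold change was above 0 in 19, 15, 14 and 14 members in the same order, beside 55.5%, 46%, 54.8% and 47.2% of all probe sets. Where the arrays of the groups compared did not overlap, the count was 17 of 37 for the DOX response in knockout-labelled hearts (20.7% of all probe sets, 38.3% of the bright ones), 14 for that in WT hearts (24.4% and 38.1%), 13 for the genotype difference after DOX (20.4% and 29.9%) and 21 for that in untreated hearts (19.4% and 39.1%).

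Many of these calls were lost when 1 array was left out, which also leaves fewer arrays in its group. Without WT untreated replicate 2 or 3 or WT DOX replicate 1 or 2, 0 members were called in the DOX response of WT hearts, against 5 with all arrays, and 2 were called without WT untreated replicate 1 or knockout-labelled DOX replicate 2 and 3 without knockout-labelled untreated replicate 1. The genotype difference after DOX, with 4 members called, had 0 without WT DOX replicate 1 or 2 or knockout-labelled DOX replicate 2 or 3, and 2 without WT untreated replicate 2 or 3 or knockout-labelled DOX replicate 1. The untreated genotype difference, with 5, had 2 without WT untreated replicate 1, 1 without WT untreated replicate 2 or 3, 3 without knockout-labelled DOX replicate 3 and 8 without knockout-labelled untreated replicate 2. Over all probe sets the calls in these fits also moved, from 41 to 2285 for the DOX response in WT hearts, 19 to 893 for the genotype difference after DOX, 84 to 1206 for the untreated genotype difference and 116 to 1090 for the DOX response in knockout-labelled hearts. The last had 2 members in place of 1 without knockout-labelled untreated replicate 2, any 1 of the WT DOX arrays or knockout-labelled DOX replicate 3.

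**Figure D1:**
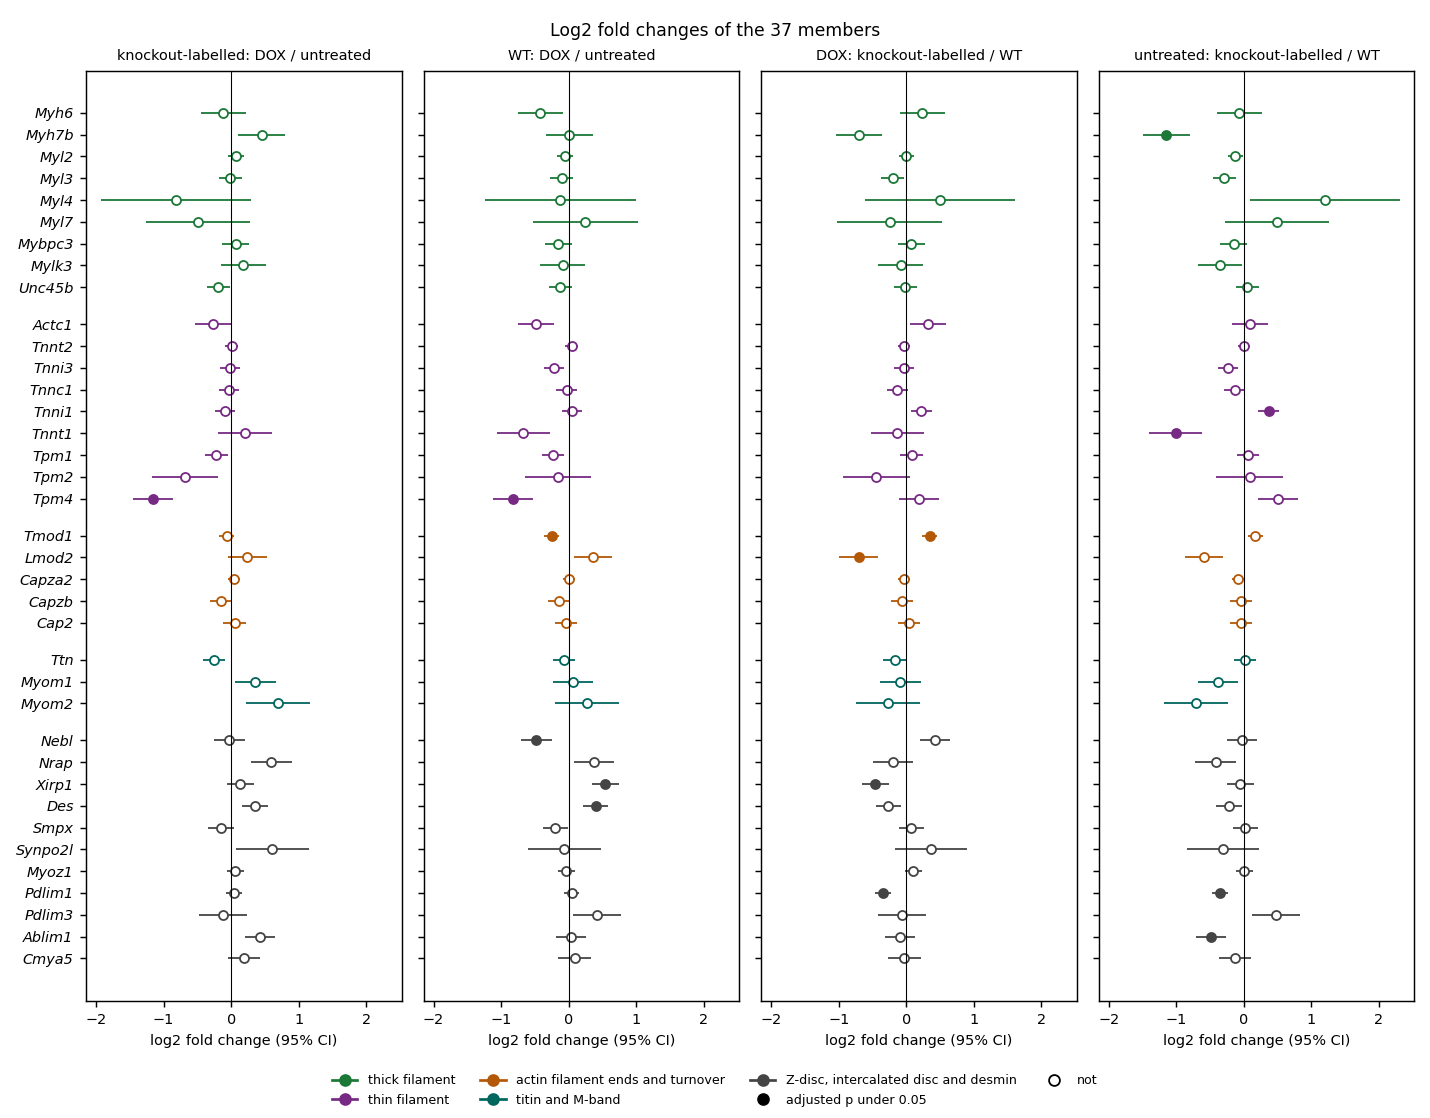
Log2 fold change on the log2(intensity + 32) scale with its 95% confidence interval, for each of the 37 members in rows and the 4 comparisons in columns. Filled points passed the test at an adjusted p under 0.05: 1, 5, 4 and 5 members from left to right, while Myl4 and Myl7 have the widest intervals.

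The spread between arrays of a group differed among the members. The median over a gene's 4 groups of the within-group coefficient of variation had a median of 7.31% over the members, from 2.90% for Myl2, the ventricular regulatory light chain, to 24.9% for Myl4, the atrial essential light chain. In knockout-labelled untreated hearts that of Myl4 was 106% and that of Myl7 109.8%. In 17 members the highest of the 12 arrays was under 1.5 times the lowest, and in 12 it was at least 2 times. Tnnt2, cardiac troponin T, moved least, with a ratio of 1.10, and its 4 log2 fold changes lay between -0.03 and 0.04.

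Promoter sequences of 34 of the 37 members were found in RefSeq (GRCm38.p6), and 4 are shown, those of Tpm4, Tnnt1, Tmod1 and Lmod2, the genes of the thin filament and its ends that were called, apart from the dim Tnni1. Each of the 4 has 1 window in the table. Each is the 250 bases before a RefSeq start, 5′ to 3′ on the strand of the gene, with capitals on any CArG box, MEF2 site, MCAT element (CATTCC) or TATA box (TATAAA) found on either strand. The Tmod1 window (chr4:46038972-46039221, plus strand) held 1 MCAT element. The Tnnt1 window (chr7:4515976-4516225, minus strand) held 1 TATA box 30 bases before the start, and the windows of Tpm4 (chr8:72135038-72135287, plus strand) and Lmod2 (chr6:24597521-24597770, plus strand) held none of these letters.
Tpm4: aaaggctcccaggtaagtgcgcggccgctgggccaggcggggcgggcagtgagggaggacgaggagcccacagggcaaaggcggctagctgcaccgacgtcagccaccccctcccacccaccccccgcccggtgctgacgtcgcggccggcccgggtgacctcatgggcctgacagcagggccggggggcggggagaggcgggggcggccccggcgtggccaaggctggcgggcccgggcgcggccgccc
Tmod1: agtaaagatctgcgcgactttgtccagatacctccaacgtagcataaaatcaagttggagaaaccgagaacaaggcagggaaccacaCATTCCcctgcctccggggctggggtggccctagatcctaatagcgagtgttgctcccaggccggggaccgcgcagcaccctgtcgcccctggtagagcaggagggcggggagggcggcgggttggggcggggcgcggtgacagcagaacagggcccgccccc
Lmod2: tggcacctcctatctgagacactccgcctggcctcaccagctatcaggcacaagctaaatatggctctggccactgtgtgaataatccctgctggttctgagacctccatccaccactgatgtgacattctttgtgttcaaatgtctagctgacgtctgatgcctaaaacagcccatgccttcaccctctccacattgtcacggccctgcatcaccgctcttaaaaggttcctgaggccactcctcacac
Tnnt1: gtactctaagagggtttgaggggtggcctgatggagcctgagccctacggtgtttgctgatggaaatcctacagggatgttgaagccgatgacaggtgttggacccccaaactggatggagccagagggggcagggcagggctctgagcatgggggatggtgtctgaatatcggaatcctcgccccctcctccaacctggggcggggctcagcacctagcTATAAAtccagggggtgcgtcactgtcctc

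Over the 34 members, a CArG box lay in the 250 bases of 5 (14.7%), against 1.62% of the 27025 genes with a promoter in the table, and these 5 were Actc1, Myl3, Myl7, Myom1 and Nebl. A gene was counted where any of its windows held the letters, and Nebl has 4 windows and Ablim1 5. An MCAT element lay in 11 (32.4%), against 14.4% of all genes, and the letters AGATAA of a GATA site lay in 10 (29.4%), against 11.4%. A MEF2 site was found in 3 (8.82%, against 3.42%), an E-box (CANNTG) in 28 (82.4%, against 69.3%) and a TATA box in 3 (8.82%, against 14.3%). All motifs were searched on both strands, and 0 of the CArG, MEF2, MCAT and TATA matches overlapped a match of another of these motifs. A match describes letters and is not a measured binding site. Of the 11 members that passed the test, only Nebl held a CArG box, Tmod1, Nebl and Ablim1 held an MCAT element, and Xirp1 was not in the table.

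Among the 9 thin filament genes, Tpm4, a tropomyosin best known from the cytoskeleton of cells other than striated muscle, had the largest change with DOX. Its intensity was 582, 589.9 and 676 in knockout-labelled DOX hearts, against 1564, 1201 and 1504 in knockout-labelled untreated hearts. In WT hearts it was 474, 539 and 607 after DOX, against 855, 960.2 and 1149 without DOX. All 3 DOX arrays lay below all 3 untreated arrays in both genotypes, and the untreated knockout-labelled arrays were the highest of all. Tpm4 was the only member with all 6 DOX arrays below all 6 untreated arrays, which held for 1.7% of all probe sets and 4.3% of those with a mean of 1000 or more. Tpm4 fell in knockout-labelled hearts (-1.16 ± 0.13 on the log2 scale, standard error, limma adjusted p = 0.00753) and in WT hearts (-0.83 ± 0.13, adjusted p = 0.0186). These fold changes are on the log2(intensity + 32) scale, which understates the changes of dim genes. The difference between the 2 responses was -0.33 (95% confidence interval -0.75 to 0.09, adjusted p = 0.65). The fall in knockout-labelled hearts was called with any 1 of the 12 arrays left out, at an adjusted p of at most 0.0359, while the fall in WT hearts lost its call without WT untreated replicate 2 or 3 or WT DOX replicate 1 or 2, with an adjusted p of up to 0.0732.

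Markers of other cell types moved in the same comparisons as Tpm4. Of 10 fibroblast genes, 10 had a log2 fold change below 0 after DOX in knockout-labelled hearts and 9 in WT hearts, with medians of -0.87 and -0.63, and 2 were called lower in each. Their summed intensity ranged from 20336 to 20916 in knockout-labelled DOX hearts and 22755 to 31719 in knockout-labelled untreated hearts, and from 16012 to 17888 in WT DOX hearts and 18110.3 to 21918 in WT untreated hearts. Acta2, smooth muscle actin, fell after DOX in knockout-labelled hearts (-1.91, adjusted p = 0.0251) and was 2.41 higher in knockout-labelled than in WT untreated hearts (adjusted p = 0.0139). It was picked after its values were seen and was the only call among 7 smooth muscle genes. Of the 7, 5 lay below 0 and 2 above in each DOX response. In the untreated genotype difference 4 lay above 0 and 3 below, with a median of 0.21. The 7 smooth muscle genes summed to 2754 to 4292 in knockout-labelled DOX hearts, 8091 to 14194 in knockout-labelled untreated hearts, 1871 to 3006 in WT DOX hearts and 2463 to 3554 in WT untreated hearts. Of 12 macrophage genes, 11 and 10 lay below 0 in the DOX response of knockout-labelled and WT hearts, with Cd68 and Csf1r called lower in WT hearts, and 0 of 10 endothelial genes were called on their brightest probe set. The part of these cells in the Tpm4 values was not tested.

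Tnnt1, the slow skeletal isoform of troponin T, was low in 9 of the 12 arrays and high in the 3 WT untreated hearts. It measured 165, 143 and 151 in knockout-labelled DOX hearts and 155, 163 and 81.0 in knockout-labelled untreated hearts. The WT arrays gave 148, 176 and 189 after DOX, against 297, 283 and 290.1 without DOX. The 3 WT untreated arrays lay above the other 9 without overlap. Knockout-labelled untreated hearts differed from WT untreated hearts by -1.01 ± 0.18 (adjusted p = 0.0252), and the call ended without any 1 of the 3 WT untreated arrays (adjusted p of up to 0.095). The WT response to DOX, -0.67 ± 0.18, missed the threshold (adjusted p = 0.0721) and passed it without knockout-labelled untreated replicate 3 (adjusted p = 0.006), which was the lowest array for Tnnt1. The interaction was 0.88 (95% confidence interval 0.32 to 1.43, adjusted p = 0.464), the largest of the 37 members in size. The sum of the erythroid markers moved as well, over the 3 of 5 listed genes that were matched to a probe set. It was 40.4 to 51.0 in knockout-labelled DOX hearts and 85.0 to 344.6 in knockout-labelled untreated hearts. In WT hearts it was 35.6 to 56.3 after DOX and 211.7 to 1160.4 without DOX. The untreated arrays lay above the DOX arrays in both genotypes, and the untreated groups overlapped. Of the 3, Alas2, the heme synthesis enzyme of red cell precursors, was called lower with DOX in WT hearts (-3.21, adjusted p = 0.0249), and the other 2 were not called. In knockout-labelled hearts 0 of the 3 were called with DOX. The log2 fold changes with DOX ran from -1.63 to -0.02 in knockout-labelled hearts and from -3.21 to -0.01 in WT hearts. The part of blood cells in the values of Tnnt1 and of the WT DOX comparison was not tested.

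Tnni1, the troponin I of slow skeletal muscle and the fetal heart, was dim, with values near or below the array medians of 28.9 to 30.4. Its intensity was 28.1, 30.0 and 27.5 in knockout-labelled DOX hearts, against 21.8, 19.1 and 18.7 in WT DOX hearts. Without DOX it was 28.7, 28.8 and 41.0 in knockout-labelled hearts, against 20.7, 17.1 and 16.4 in WT hearts. All 6 knockout-labelled arrays lay above all 6 WT arrays, as in 2 of the 37 members (Tnni1 and Myl4), 0.877% of all probe sets and 3.29% of the bright ones. The difference was called in untreated hearts (0.37 ± 0.07, adjusted p = 0.0304) and not after DOX (0.22 ± 0.07, adjusted p = 0.153). The untreated call ended without WT untreated replicate 1, 2 or 3 or knockout-labelled DOX replicate 3 (adjusted p of up to 0.121).

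The other 6 thin filament genes were called in no comparison. Actc1, cardiac actin, measured 17626, 21247 and 20555 in knockout-labelled DOX hearts, against 22533, 23958 and 24708 in knockout-labelled untreated hearts, and 15636, 13233 and 19221 in WT DOX hearts, against 23009.8, 21012 and 22706 in WT untreated hearts. The DOX arrays lay below the untreated arrays in both genotypes, and the log2 fold changes of -0.26 and -0.49 had adjusted p values of 0.318 and 0.0602. Tpm1, the main tropomyosin of the heart, had log2 fold changes of -0.22 and -0.23 after DOX (adjusted p = 0.173 and 0.121). Tpm2, a tropomyosin of slow skeletal and smooth muscle, had -0.69 in knockout-labelled hearts (adjusted p = 0.15) and -0.16 in WT hearts (adjusted p = 0.782). Tnni3 and Tnnc1, the cardiac troponins I and C, had log2 fold changes between -0.23 and -0.02 in all 4 comparisons. In all, 7 of the 9 thin filament genes lay below 0 after DOX in each genotype, with medians of -0.09 in knockout-labelled hearts and -0.21 in WT hearts.

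Of the 5 genes for actin filament ends and turnover, Tmod1 and Lmod2 differed in opposite directions between the genotypes. Tropomodulin 1 (Tmod1) caps the pointed end of the thin filament, and leiomodin 2 (Lmod2) lets it grow there. Tmod1 measured 2408, 2553 and 2637 in knockout-labelled DOX hearts and 2656, 2722 and 2572 in knockout-labelled untreated hearts. In WT hearts it was 1976, 1998 and 1958 after DOX, against 2538, 2304 and 2233 without DOX. The 3 WT DOX arrays, which lay within 2.07% of one another, were the lowest of the 12. Tmod1 fell with DOX in WT hearts (-0.25 ± 0.05, adjusted p = 0.0323) and was higher in knockout-labelled than in WT hearts after DOX (0.35 ± 0.05, adjusted p = 0.0229), and both comparisons use the WT DOX arrays. In knockout-labelled hearts the DOX response was -0.07 ± 0.05 (adjusted p = 0.605), and the interaction was 0.18 (95% confidence interval 0.03 to 0.34, adjusted p = 0.539). The call in WT hearts ended without any of WT untreated replicates 1 to 3, WT DOX replicates 1 to 3 or knockout-labelled DOX replicate 2 (adjusted p of up to 0.0884), and the genotype call after DOX ended without WT DOX replicate 1 or 2 or knockout-labelled DOX replicate 2 or 3 (up to 0.0967).

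Lmod2 measured 3796, 3653 and 3224 in knockout-labelled DOX hearts, against 6061, 6328 and 5116 in WT DOX hearts. In untreated hearts it was 3463, 3209 and 2431 in knockout-labelled hearts, against 4529, 4718 and 4327 in WT hearts. All 6 knockout-labelled arrays lay below all 6 WT arrays, as in 3 of the 37 members (Lmod2, Pdlim1 and Myh7b), 1.15% of all probe sets and 3.09% of the bright ones. Lmod2 was lower in knockout-labelled hearts after DOX (-0.71 ± 0.13, adjusted p = 0.0404), and the untreated difference of -0.59 ± 0.13 missed the threshold (adjusted p = 0.0524). The call after DOX was kept only when the array left out was knockout-labelled untreated replicate 1 or 3 or WT DOX replicate 3, and its adjusted p reached 0.148. DOX itself gave 0.24 in knockout-labelled hearts and 0.36 in WT hearts (adjusted p = 0.404 and 0.159). Capza2 and Capzb, subunits of the protein that caps the barbed end at the Z-disc, and Cap2, an actin turnover protein, had log2 fold changes between -0.15 and 0.05 and no call.

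**Figure D2:**
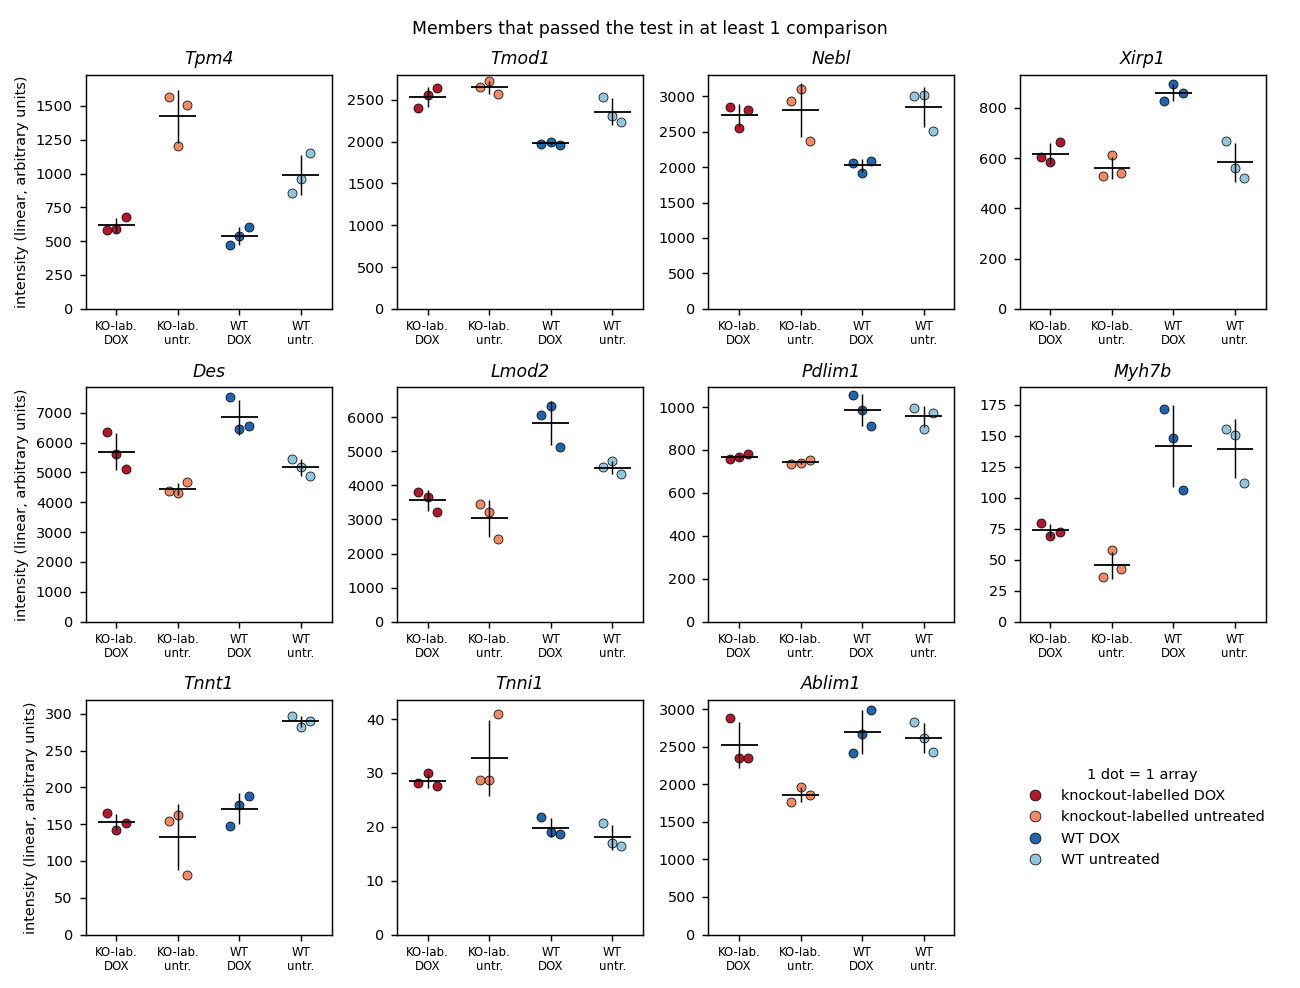
Linear intensity (arbitrary units) of the 11 members that passed the test in at least 1 comparison, with 1 dot per array, the group mean as a bar and the SD as a vertical line (n = 3 each). The 6 DOX arrays of Tpm4 lie at 676 or below and the 6 untreated arrays at 855 or above, and the 6 knockout-labelled arrays of Lmod2, Pdlim1 and Myh7b lie below the 6 WT arrays.

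Of the 11 genes of the Z-disc, intercalated disc and intermediate filament, 5 passed the test somewhere. Nebl encodes nebulette, which binds actin at the Z-disc of the heart. It measured 2849, 2551 and 2808 in knockout-labelled DOX hearts and 2936, 3097 and 2375 in knockout-labelled untreated hearts. In WT hearts it was 2065, 1924 and 2087 after DOX, against 3000.5, 3024 and 2517 without DOX. The 3 WT DOX arrays were the lowest of the 12. Nebl fell with DOX in WT hearts (-0.48 ± 0.10, adjusted p = 0.0393), with -0.03 ± 0.10 in knockout-labelled hearts (adjusted p = 0.946) and an interaction of 0.45 (95% confidence interval 0.13 to 0.78, adjusted p = 0.481). The genotype difference after DOX was 0.43 ± 0.10 (adjusted p = 0.0837). The call in WT hearts was kept in 3 of the 12 fits with 1 array left out, those without knockout-labelled untreated replicate 2 or 3 or WT DOX replicate 3, and its adjusted p reached 0.13. The other 2 Nebl probe sets, with means of 149.6 and 108.7, gave -0.25 and -0.19 in WT hearts and were not called.

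Xirp1 encodes Xin, an actin-binding protein of the intercalated disc. Its intensity was 603, 585 and 664 in knockout-labelled DOX hearts and 529.9, 611 and 540.0 in knockout-labelled untreated hearts. WT hearts gave 826, 894 and 860.2 after DOX, against 669.6, 561 and 519 without DOX. The 3 WT DOX arrays were the highest of the 12. Xirp1 rose with DOX in WT hearts (0.54 ± 0.09, adjusted p = 0.0203) and was lower in knockout-labelled than in WT hearts after DOX (-0.46 ± 0.09, adjusted p = 0.0487), where the WT DOX arrays are again shared. In knockout-labelled hearts the DOX response was 0.13 ± 0.09 (adjusted p = 0.531), and the interaction was -0.41 (95% confidence interval -0.69 to -0.13, adjusted p = 0.473). The rise in WT hearts lost its call without WT untreated replicate 2 or 3 or WT DOX replicate 1 or 2 (adjusted p of up to 0.0748). The genotype call was kept only when the array left out was WT untreated replicate 1 or knockout-labelled untreated replicate 2 or 3 (up to 0.166).

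Des encodes desmin, the intermediate filament that ties Z-discs together. It measured 6359, 5626 and 5109 in knockout-labelled DOX hearts, against 4380.0, 4299.5 and 4665 in knockout-labelled untreated hearts. WT hearts gave 7521, 6444 and 6559 after DOX, against 5451, 5192 and 4876 without DOX. In each genotype all 3 DOX arrays lay above all 3 untreated arrays. The difference was called in WT hearts (0.40 ± 0.08, adjusted p = 0.0393) and not in knockout-labelled hearts (0.35 ± 0.08, adjusted p = 0.0677). The interval of the difference between these responses was -0.32 to 0.22. The call in WT hearts ended without WT untreated replicate 1, 2 or 3, WT DOX replicate 1 or 2, knockout-labelled untreated replicate 1 or knockout-labelled DOX replicate 2 (adjusted p of up to 0.14).

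Pdlim1, a PDZ and LIM domain protein that binds alpha-actinin, was lower in knockout-labelled hearts with and without DOX. It measured 757, 765 and 781 in knockout-labelled DOX hearts, against 1059, 987 and 912 in WT DOX hearts. In untreated hearts it was 736, 742 and 756 in knockout-labelled hearts, against 995, 899.8 and 974 in WT hearts. All 6 knockout-labelled arrays lay below all 6 WT arrays. The difference was -0.35 ± 0.05 after DOX (adjusted p = 0.0274) and -0.35 ± 0.05 without it (adjusted p = 0.0165), and these comparisons share no array. DOX gave 0.04 in knockout-labelled hearts and 0.04 in WT hearts, both with 95% confidence intervals of -0.07 to 0.16. With 1 array left out, the untreated call ended only without WT untreated replicate 3 (adjusted p = 0.0625). The call after DOX ended without WT DOX replicate 1 or 2 or knockout-labelled DOX replicate 2 or 3 (up to 0.104). Of 14 other settings, the untreated call was kept in 10 and the call after DOX in 9. Both ended with 1 added before log2 and with a gene's probe sets averaged. They also ended with the methods' t-test after Benjamini-Hochberg adjustment and with limma on the 6 arrays compared. The call after DOX ended with a trended and robust variance as well. Values of the further Pdlim1 probe sets are not given here.

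Ablim1, an actin-binding LIM protein of the Z-disc region, measured 2875, 2351 and 2349 in knockout-labelled DOX hearts and 1761, 1961 and 1855 in knockout-labelled untreated hearts. WT hearts gave 2410.4, 2668 and 2993 after DOX and 2821, 2608 and 2426 without DOX. The 3 knockout-labelled untreated arrays were the lowest of the 12. Ablim1 was lower in knockout-labelled than in WT untreated hearts (-0.49 ± 0.10, adjusted p = 0.0429), while the DOX response of knockout-labelled hearts missed the threshold (0.43 ± 0.10, adjusted p = 0.0583). The call ended without WT untreated replicate 1, 2 or 3, knockout-labelled untreated replicate 1 or 3, WT DOX replicate 2 or knockout-labelled DOX replicate 2 or 3 (adjusted p of up to 0.139). A second Ablim1 probe set, with a mean of 1635, gave -0.42 and 0.47 in the same comparisons and was not called.

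The other 6 members of this group had no call. Nrap, a nebulin-related anchoring protein that takes part in myofibril assembly, came nearest, with 1344, 1075 and 1126 in knockout-labelled DOX hearts, against 865, 721 and 722 in knockout-labelled untreated hearts (0.60 ± 0.13, adjusted p = 0.0537). The DOX arrays did not overlap the untreated arrays there. In WT hearts Nrap measured 1588, 1103 and 1418 after DOX, against 1108, 1046 and 956 without DOX (0.38 ± 0.13, adjusted p = 0.159), and these overlapped. Smpx, Synpo2l, Myoz1, Pdlim3 and Cmya5, small proteins and scaffolds of the Z-disc and costamere, had adjusted p values of 0.189 or more.

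Of the 9 thick filament genes, only Myh7b passed the test. It encodes a slow myosin heavy chain of low abundance in the heart. Its intensity was 79.4, 68.8 and 72.8 in knockout-labelled DOX hearts, against 171, 148 and 106 in WT DOX hearts. Without DOX it was 36.3, 57.7 and 42.7 in knockout-labelled hearts, against 156, 151 and 112 in WT hearts. All 6 knockout-labelled arrays lay below all 6 WT arrays. Myh7b was lower in untreated hearts (-1.15 ± 0.15, adjusted p = 0.0126), and the difference after DOX missed the threshold (-0.70 ± 0.15, adjusted p = 0.0693). With 1 array left out, the untreated call ended only without WT untreated replicate 2 (adjusted p = 0.063). In knockout-labelled hearts the 3 DOX arrays lay above the 3 untreated arrays (0.45 ± 0.15, adjusted p = 0.175).

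Myl4 and Myl7, the essential and regulatory light chains of the atrium, were called in no comparison, and 1 array stood apart in both. Myl4 measured 63.6, 96.6 and 86.1 in knockout-labelled DOX hearts, 116, 66.7 and 516 in knockout-labelled untreated hearts, 56.4, 32.4 and 57.6 in WT DOX hearts and 51.1, 51.6 and 62.6 in WT untreated hearts. The 6 knockout-labelled arrays of Myl4 lay at 63.6 or above and its 6 WT arrays at 62.6 or below. Its genotype difference after DOX was 0.50 (limma adjusted p = 0.691). Myl7 measured 21.4, 22.3 and 21.0 in knockout-labelled DOX hearts, 19.2, 21.2 and 125 in knockout-labelled untreated hearts, 37.0, 23.8 and 34.5 in WT DOX hearts and 23.1, 22.5 and 19.2 in WT untreated hearts. In both, knockout-labelled untreated replicate 3 stood far above every other array. Sln, sarcolipin, a calcium pump regulator of the atrium that is no member, stood apart on the same array, with 10.8, 8.35 and 82.9 in knockout-labelled untreated hearts and 9.76 to 18.6 on the 9 arrays of the other groups. Sln was picked after its values were seen, from 6 listed atrial genes of which 0 were called in any comparison. In the untreated genotype difference 5 of the 6 lay above 0 and 1 below, with a median of 0.24. Apart from Sln and Nppa, their values on that array are not given here. Without that array the untreated genotype difference of Myl4 was 0.48 (adjusted p = 0.423), against 1.20 (adjusted p = 0.302) with it, and that of Myl7 was -0.04, against 0.49. On the other arrays Myl7 lay near the array medians, although the labels say that whole hearts were taken, while Nppa, atrial natriuretic peptide, measured 11399, 16112 and 11268 in knockout-labelled DOX hearts, 13732, 17236 and 16613 in knockout-labelled untreated hearts, 10374, 4608 and 6592 in WT DOX hearts and 9428, 6579 and 3556 in WT untreated hearts. The part of atrial tissue in these values was not tested. Without the array that stood apart, the untreated genotype calls of Tnnt1 (-0.75, adjusted p = 0.0111), Myh7b (-1.12, 0.0368), Tnni1 (0.28, 0.0339) and Pdlim1 (-0.36, 0.0418) were kept, and that of Ablim1 (-0.48, 0.117) was not. After DOX, the genotype differences of Tnni1 (0.22, 0.034) and Nebl (0.43, 0.0338) passed the test without it.

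**Figure D3:**
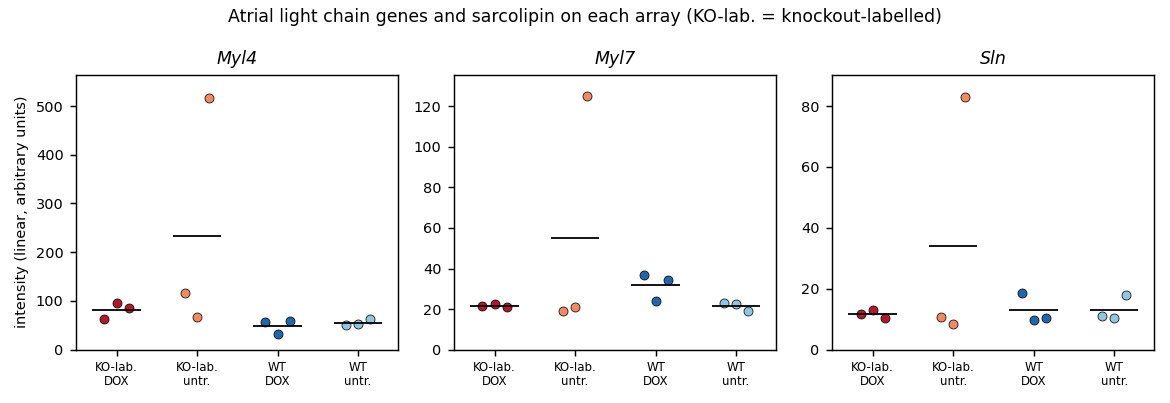
Linear intensity (arbitrary units) of the atrial light chain genes Myl4 and Myl7 and of Sln, with 1 dot per array and the group mean as a bar (n = 3 each). Knockout-labelled untreated replicate 3, at 516.5, 125.1 and 82.9, is the high dot in each panel.

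None of the 6 ventricular thick filament genes was called. The 9 thick filament genes together summed to 78121 to 82528 in knockout-labelled DOX hearts, 74545 to 84791 in knockout-labelled untreated hearts, 76781 to 88223 in WT DOX hearts and 89155 to 92136 in WT untreated hearts, so that the WT untreated arrays lay above the other 9. Myh6, the main myosin heavy chain of the adult mouse heart, measured 19125, 19728 and 20849.7 in knockout-labelled DOX hearts, against 22009, 21773 and 21068 in knockout-labelled untreated hearts, and 13705, 15302 and 22945 in WT DOX hearts, against 22595, 22266 and 23074 in WT untreated hearts. WT DOX replicates 1 and 2 were the lowest of the 12, while WT DOX replicate 3 lay within the WT untreated range. The log2 fold change was -0.42 ± 0.15 in WT hearts (adjusted p = 0.157) and -0.12 ± 0.15 in knockout-labelled hearts (adjusted p = 0.789). Without WT DOX replicate 3, Myh6 was among the members called in both comparisons that use the WT DOX arrays. Myl2 and Myl3, the ventricular light chains, Mybpc3, myosin binding protein C, Mylk3, the cardiac light chain kinase, and Unc45b, a myosin chaperone, had log2 fold changes between -0.35 and 0.18 and no call.

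Titin and the M-band had no call among 3 genes. Myom2, the M-band protein myomesin 2, had the largest values, with 15636, 13981 and 14019 in knockout-labelled DOX hearts, against 9778, 12496 and 5831 in knockout-labelled untreated hearts (0.70 ± 0.21, adjusted p = 0.129). WT hearts gave 17563, 17307 and 17761 after DOX, against 15252, 14722 and 13819 without DOX (0.27 ± 0.21, adjusted p = 0.574). Knockout-labelled untreated replicate 3 was the lowest of the 12, and the groups did not overlap in either genotype. Myom1 had 0.36 and 0.06 (adjusted p = 0.22 and 0.869), and Ttn, the giant spring protein titin, had -0.26 and -0.07 (adjusted p = 0.112 and 0.706) after DOX in knockout-labelled and WT hearts.

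Setting the responses side by side in arrays that they do not share, 27 of the 37 members (73.0%) had the same sign of the DOX response in knockout-labelled and in WT hearts, 12 above 0 and 15 below, beside 59.2% of all probe sets. Across the members the correlation of the responses was 0.48, and across all probe sets it was 0.62. For the genotype difference with and without DOX, 25 members (67.6%) had the same sign, 8 above 0 and 17 below, beside 56.2% of all probe sets, with correlations of 0.57 and 0.46. The members are bright as a group, and the shares of equal sign among bright probe sets were not computed. The members are therefore not shown to differ from other bright genes here. Genes of a heart are not independent replicates, and these values describe the 12 arrays. Among the members that did not follow the diagonal were Tnnt1, at 0.21 in knockout-labelled and -0.67 in WT hearts, and Myl7, at -0.49 and 0.24.

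**Figure D4:**
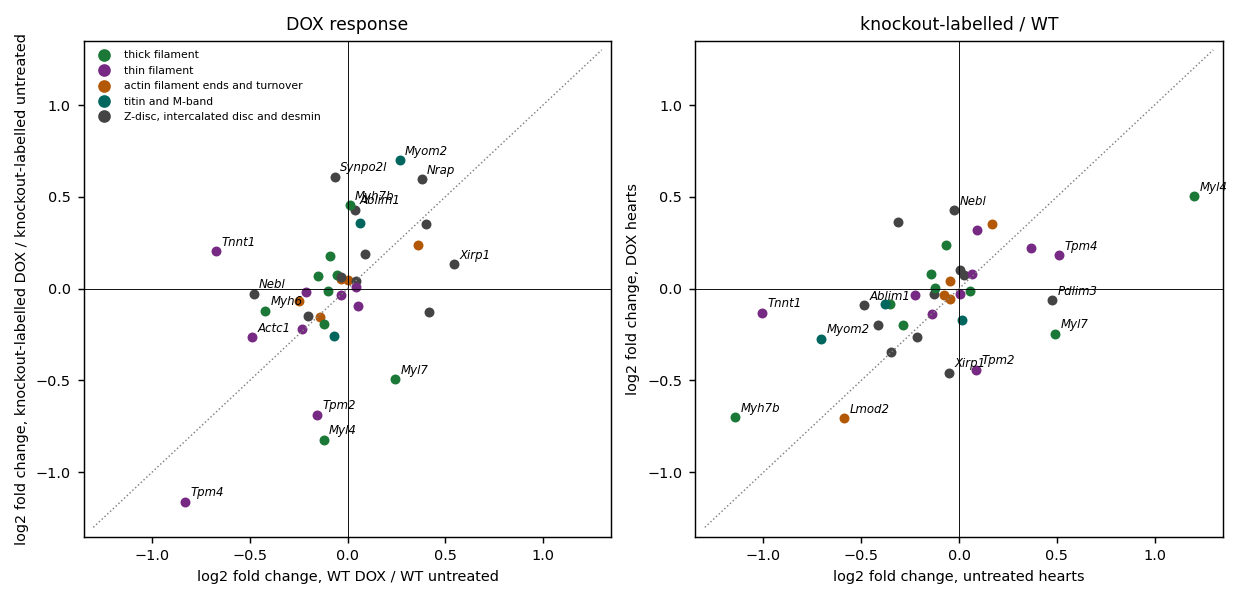
Log2 fold changes of the 37 members, 1 dot per gene coloured by role. On the left the DOX response in knockout-labelled hearts (vertical) is set against that in WT hearts (horizontal), and on the right the genotype difference after DOX (vertical) against that in untreated hearts (horizontal), with the dotted line marking equal values; Tpm4 is far below 0 on both axes at left, and Myh7b and Lmod2 are below 0 on both axes at right.

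Of 32 further sarcomere and Z-disc genes, 29 had a probe set, and 4, 5, 3 and 4 of them were called in the DOX response of knockout-labelled hearts, the DOX response of WT hearts, the genotype difference after DOX and that in untreated hearts. In the same order 2.2%, 3.06%, 0.941% and 1.81% of all probe sets were called. Of those with a mean of 1000 or more, the shares were 7.97%, 8.65%, 2.66% and 6.52%. Myot, the Z-disc protein myotilin, measured 186 ± 25.7 in knockout-labelled DOX hearts and 63.0 ± 4.79 in knockout-labelled untreated hearts, and 1312 ± 290.2 in WT DOX hearts and 414 ± 45.1 in WT untreated hearts (mean ± SD, n = 3 each). It rose with DOX by 1.19 and 1.58 on the log2 scale (adjusted p = 0.00766 and 0.0034) and was lower in knockout-labelled than in WT hearts, with log2 fold changes of -2.61 after DOX and -2.23 without it (adjusted p = 3.3e-04 and 5.0e-04). Trim54, a muscle ubiquitin ligase of microtubules and the sarcomere, rose with DOX by 0.96 in knockout-labelled and 0.62 in WT hearts and was lower in knockout-labelled than in WT untreated hearts (-0.69). Fhl2, a LIM protein that binds titin, fell with DOX by 0.50 in knockout-labelled and by 0.88 in WT hearts. After DOX it was called higher in knockout-labelled than in WT hearts, the only call in that direction there. Lmod3, a leiomodin of skeletal muscle, and Casq2, the calcium store protein calsequestrin, fell in WT hearts (-1.38 and -0.70), and Tpm3, a slow tropomyosin, fell in knockout-labelled hearts (-0.43). Murc, a caveolar coat protein also known as cavin 4, was lower in knockout-labelled hearts after DOX (-0.47) and without it (-0.45), as was the M-band gene Myom3 without it (-0.30). The interaction called 0 of the 29.

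Cardiomyocyte markers were high on every array. The atrial Myl7 and Sln were near or below the array medians on most, while Nppa was at 3556 or more on every array. The 6 atrial markers other than members, most of whose sum is Nppa, summed to 11739 to 16530 in knockout-labelled DOX hearts and 14135 to 17671 in knockout-labelled untreated hearts. In WT hearts they summed to 5187 to 10900 after DOX and 4018 to 9881 without DOX. Cardiomyocyte genes outside the sarcomere, 12 in number, summed to 110530.4 or more on every array, and 1, 1, 0 and 1 of them were called in the 4 comparisons (Ryr2, the calcium release channel, lower with DOX in knockout-labelled hearts, Popdc2 lower with DOX in WT hearts and Slc8a1, the sodium calcium exchanger, higher in knockout-labelled untreated hearts). The 11 fast skeletal muscle genes summed to at most 324.6, and the 5 adipocyte genes to at most 79.3. Fibroblast genes lay above 0 in 10 of 10 in both genotype comparisons, with medians of 0.48 after DOX and 0.52 without it. Only 1 of the 10 was called in each, Lum after DOX and Col1a1 without it. Knockout-labelled untreated replicate 3 was the lowest of the 12 arrays for 10 members and the highest for 6, WT DOX replicate 2 was the lowest for 8 and WT untreated replicate 1 the highest for 9. With 3 arrays against 3, an exact permutation test of a single gene cannot go below p = 0.1, so calls rest on limma's shared estimate of the spread.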

How the data were processed

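Heart RNA of 12 arrays, 3 per group, was measured. The deposited intensities, 1 linear value per probe set and array, were made by the authors with Affymetrix Expression Console (version, summary method and scaling not given in the sources used here), and array medians lay between 28.9 and 30.4. Arrays were grouped by the labels alone. The members and the gene lists were chosen with earlier results of these data known. A gene's brightest probe set by mean stood for it. The value 32 was added before log2, and 4 group means were fitted to all 12 arrays and 45037 probe sets with limma 3.58.1 in R 4.3.3 (lmFit, eBayes without trend, two-sided, Benjamini-Hochberg over all probe sets). The steps were tested on simulated data. Values are given for members called in any comparison and for the 2 with the largest fold change in each, beside a few others chosen after their values were seen (Nrap, Actc1, Myh6, Myom2, Tpm1, Tpm2, Tnnt2, Myom1, Ttn and the non-members Sln, Nppa and Acta2). Of the probe sets, 34945 name 1 gene, 932 several and 9160 none in the platform annotation. No column of another series was used (0 columns). Alternatives were 14 other settings and the removal of each array. The number of arrays limits the precision. Python 3.11.15 with pandas 2.3.3 and matplotlib 3.10.9 prepared tables and plots.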

Additional observations from a re-analysis of the deposited data

How the results depend on the processing

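No call on a named member turned its direction under the other settings that could test it (14, or 12 for Tnni1, which the intensity filters leave out) or with any 1 of the 12 arrays left out, while the untreated genotype difference of Myl7, which was not called, did so without knockout-labelled untreated replicate 3 (-0.04, against 0.49). The genotype difference after DOX held 2 members (Myh7b and Lmod2) with 1 added before log2 in place of 32, against 4. The DOX response in knockout-labelled hearts, with 1 member, held 2 with 1 or 16 added or with array weights, 3 with quantile normalization, with a trended and robust variance or with a gene's probe sets averaged, 4 with 1 probe set per gene, 5 when probe sets with a mean under 32 were left out and 6 when those under 100 were. The genes gained there were Nrap, Ablim1, Des, Myom2 and Tpm2, and filters test fewer probe sets. The methods' t-test gave 11, 10, 9 and 14 members at an unadjusted p under 0.05 in the DOX responses of knockout-labelled and WT hearts and the genotype differences after DOX and without it, beside 11.9%, 15%, 11.8% and 11% of all probe sets, and 0 members in each after Benjamini-Hochberg adjustment. Limma on the 6 arrays compared gave 1, 3, 0 and 0. With 1 array left out the counts ranged from 1 to 2, 0 to 7, 0 to 6 and 1 to 8, and the interaction held 0 members under every setting run, and at most 5 of all probe sets (with array weights). For these counts and for single genes whose calls changed, the cause was not tested. Dim genes such as Tnni1 and Myl7 sit near the added value, which limits their fold changes. Of the 37 further probe sets of the members, 0 were called in any comparison, and 14 had a mean under 100.

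Replicate numbers showed no clear pairing: same-numbered arrays of the groups compared deviated with correlations of -0.20 to 0.15, above 0.1 in at most 1 of 3 pairs. In the untreated genotype difference they lay between 0.03 and 0.14. With 3 arrays per group these values cannot exclude a pairing. With the replicate number as a block, 3, 5, 3, 4 and 0 members were called in the 5 comparisons, interaction last.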
